A study of Mus musculus with 9 samples.

Results

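Immediate-early stress transcription factors are genes that cells switch on within minutes of a stimulus, without making new protein first. The 10 described here were chosen by symbol: Fos, Fosb, Jun, Junb, Jund, Egr1, Atf3, Myc, Ier2 and Klf4. All 10 had a row among the 15779 genes of the deposited tables. The rule uses symbols alone, although the genes were picked with earlier results of these data known. Values were read in 9 libraries of polyA RNA, each from the adult heart of a C57BL/6J mouse. A group of 3 wild-type libraries came from mice given saline (called wild type below). A group of 3 libraries came from saline-treated mice with the genotype Mybpc3R946X/R946X, which carry a premature stop codon, R946X, on both copies of Mybpc3 (saline mutants). The remaining 3 libraries came from mice of that same mutant genotype given a treatment labelled high-dose exABE8e (treated mutants). The protein it encodes, cardiac myosin-binding protein C, sits on the thick filament of the sarcomere. The series' design text describes 2 adenine base editors, enzymes that change A to G at a guided site, carried to heart muscle cells by an AAV9 virus. The labels do not define the name exABE8e further, and they give no sex, no age beyond adult and no dose in numbers. No group analysed here received the virus without an editor, so an effect of the virus and an effect of editing cannot be told apart. Nothing in the labels says whether each library is a separate animal, and the p-values below measure the spread between these libraries.

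FOS and JUN proteins pair through leucine zippers to form AP-1, which binds DNA at short sites beside many stress, matrix and growth genes. Their genes are held ready to be switched on by the serum response factor SRF, the ELK factors and CREB, all acted on by MAP kinases, and in heart muscle they respond to stretch, pressure load and adrenergic signals. ATF3 is a related zipper factor of the stress response. EGR1 and KLF4 are zinc-finger factors, MYC pairs with MAX to drive growth genes, and IER2 is a small nuclear protein of the same early wave.

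The values are those deposited, whole numbers on a scale on which every library sums to between 999152 and 999382. The unit is not named. Titin, the gene of a giant sarcomere protein, had values of 2873 to 5583 against 14823 to 23965 for Myh6, as a scale divided by transcript length would give, so levels of different genes are set side by side only with that reserve. Depth is unknown, and a value of 1 is the smallest step above 0. The mutated gene itself, Mybpc3, matched the labels, at 1510, 1795 and 2039 in wild type, 133 to 186 in saline mutants and 1024 to 1374 with treatment. Genes above 0 numbered 14151 to 14934 per library, and mitochondrial transcripts took 17.0% to 24.1% of a library. The third saline mutant stood apart: it held the single highest value of 4337 of the 10342 genes that had one. Xist, the RNA of the inactive X chromosome, was 119 in wild type 1, 351 in saline mutant 3 and 39 in treated mutant 1, and 0 in the other 6 libraries. The markers of heart muscle cells summed to 48033 to 58399 per library, and none of the 8 was at 0. Skeletal muscle, fat, neutrophil and lymphocyte markers that had a row each summed to 4 or less in every library.

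Of the factors called changed below, Jun and Atf3 had a promoter window to show and Myc did not. The promoters of Jun, Atf3 and Fos, which was not called in any comparison, are shown. Each is the RefSeq window on GRCm38.p6 from 250 bases before to 50 bases after the annotated start, read 5′ to 3′ along the gene. For Fos it is chr12:85473640-85473939 on the plus strand, for Jun chr4:95052173-95052472 on the minus strand, and for Atf3 chr1:191183284-191183583 on the minus strand, inside the longer gene span of the annotation. Capitals mark matches, on either strand, to TGACNTCA and TGACG (the letters of a CREB and ATF site and of its first part, which can overlap), to TGANTCA (an AP-1 site), to the CArG box of SRF, or to TATAAA.
Fos: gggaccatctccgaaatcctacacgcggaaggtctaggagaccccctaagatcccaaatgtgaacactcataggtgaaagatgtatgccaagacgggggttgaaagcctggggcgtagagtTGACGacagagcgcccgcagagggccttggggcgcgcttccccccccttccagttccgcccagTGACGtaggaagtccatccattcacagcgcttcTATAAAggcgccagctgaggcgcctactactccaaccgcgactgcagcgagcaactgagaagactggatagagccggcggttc
Jun: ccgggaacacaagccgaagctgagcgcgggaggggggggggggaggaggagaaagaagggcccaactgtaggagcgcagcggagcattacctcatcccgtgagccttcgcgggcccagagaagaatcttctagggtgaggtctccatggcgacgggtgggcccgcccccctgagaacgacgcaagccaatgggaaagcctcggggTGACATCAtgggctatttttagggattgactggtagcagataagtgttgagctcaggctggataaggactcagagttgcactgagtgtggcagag
Atf3: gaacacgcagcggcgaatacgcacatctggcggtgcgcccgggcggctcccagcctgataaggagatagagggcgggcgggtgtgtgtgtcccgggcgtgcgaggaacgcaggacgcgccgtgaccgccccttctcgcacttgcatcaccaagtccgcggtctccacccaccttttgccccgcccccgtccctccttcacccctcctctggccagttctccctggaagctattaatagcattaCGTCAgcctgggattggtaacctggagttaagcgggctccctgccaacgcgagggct
Counting the start as 0, the Jun window holds TGACATCA beginning at -45, the Fos window TGACG at -129 and -66 and TATAAA at -33, and the Atf3 window TGACG on the opposite strand at -7. The table of promoters matched 7 of the 10 genes: Fos, Fosb, Jun, Junb, Jund, Atf3 and Klf4. TGACG was in 5 of these 7 windows (all but Jun and Jund), and in 20.8% of the 32851 windows of this length in the table. TGACNTCA was in 1 of the 7, Jun, and in 8.83% of all windows. None of the 7 held TGANTCA or a CArG box, which 7.81% and 1.63% of all windows held. Sequence more than 250 bases before the start was not searched, nor were the promoters of Egr1, Myc and Ier2, so sites there are not excluded. A match is a run of letters, not a measured binding site.

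The first comparison asked what the mutation changed, saline mutant against wild type. Jun, Atf3 and Myc rose, Fos and the other JUN genes did not pass the test, and the rise was largest for Atf3. Jun, a core partner of AP-1 (chromosome 4, 95049034 to 95052222, GRCm38), was 53, 52 and 46 in wild type and 98, 68 and 74 in saline mutants (50.3 ± 3.79 against 80.0 ± 15.9, mean ± SD, n = 3). Every saline mutant was above every wild-type library. On the log2(value + 1) scale used for all fold changes below, which understates changes of low genes, Jun rose by 0.64 (SE 0.147, limma adjusted p 0.0321). A gene was called changed where its Benjamini-Hochberg adjusted p, over all genes tested, was under 0.05. In a whole heart, more cells that express a gene and more of its RNA per cell cannot be told apart.

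Atf3 (chromosome 1, 191170296 to 191218039) was 4, 3 and 3 in wild type and 19, 8 and 8 in saline mutants (3.33 ± 0.577 against 11.7 ± 6.35). The groups did not overlap, and 1 mutant library, the same one that was highest for Jun, stood well above the other two. The log2 rise of Atf3 was 1.45 (SE 0.306, limma adjusted p 0.0230). Myc (chromosome 15, 61985391 to 61990374) was 4, 5 and 4 in wild type and 8, 10 and 9 in saline mutants (4.33 ± 0.577 against 9 ± 1). Its 3 mutant values lay close together, and it rose by 0.91 (SE 0.162, limma adjusted p 0.0109).

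These 3 were all of the 10 that were called. Of the promoters shown, those of Jun and Atf3, which rose, and that of Fos, which was not called, each hold at least 1 of the CREB and ATF letter runs. With a mean of at least 1 over the 6 libraries as the limit for testing, 9 of the 10 could be tested, and 3 of 9 stands beside 7.70% of all 13632 genes tested. Of the 9, 4 were higher in saline mutants without overlap (Jun, Jund, Atf3 and Myc) and none was lower, while 21.6% of all genes had groups that did not overlap in either direction. The median log2 fold change of the 9 was 0.34, beside 0.07 over all genes.

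The other factors gave these values. Jund, the JUN protein that cells keep at a steady level, was 21, 19 and 15 in wild type and 24, 22 and 24 in saline mutants, a difference of 0.34 (SE 0.145, limma adjusted p 0.233). Junb was 19, 17 and 11 against 13, 15 and 17, with a log2 difference of -0.03 and a 95% confidence interval from -0.50 to 0.43. Its groups overlapped fully. Fos was 3, 1 and 1 in wild type and 2, 1 and 3 in saline mutants, values at the lower end of the scale, with a difference of 0.19 and an interval from -0.60 to 0.99. Fosb was 1, 1 and 0 against 0, 0 and 1, under the limit for testing. In saline mutants the called rise was thus in Jun, with both FOS genes at values of 3 or less.

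Egr1 was 16, 14 and 7 in wild type and 19, 13 and 24 in saline mutants, a log2 difference of 0.59 (SE 0.306, limma adjusted p 0.333) with overlap. Ier2 was 16, 16 and 12 against 12, 13 and 12, and Klf4 was 59, 64 and 51 against 47, 50 and 58. Their differences were -0.22 (interval -0.56 to 0.12) and -0.16 (interval -0.45 to 0.13). The groups overlapped for all 3 of these zinc-finger and nuclear factors.

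**Figure D1:**
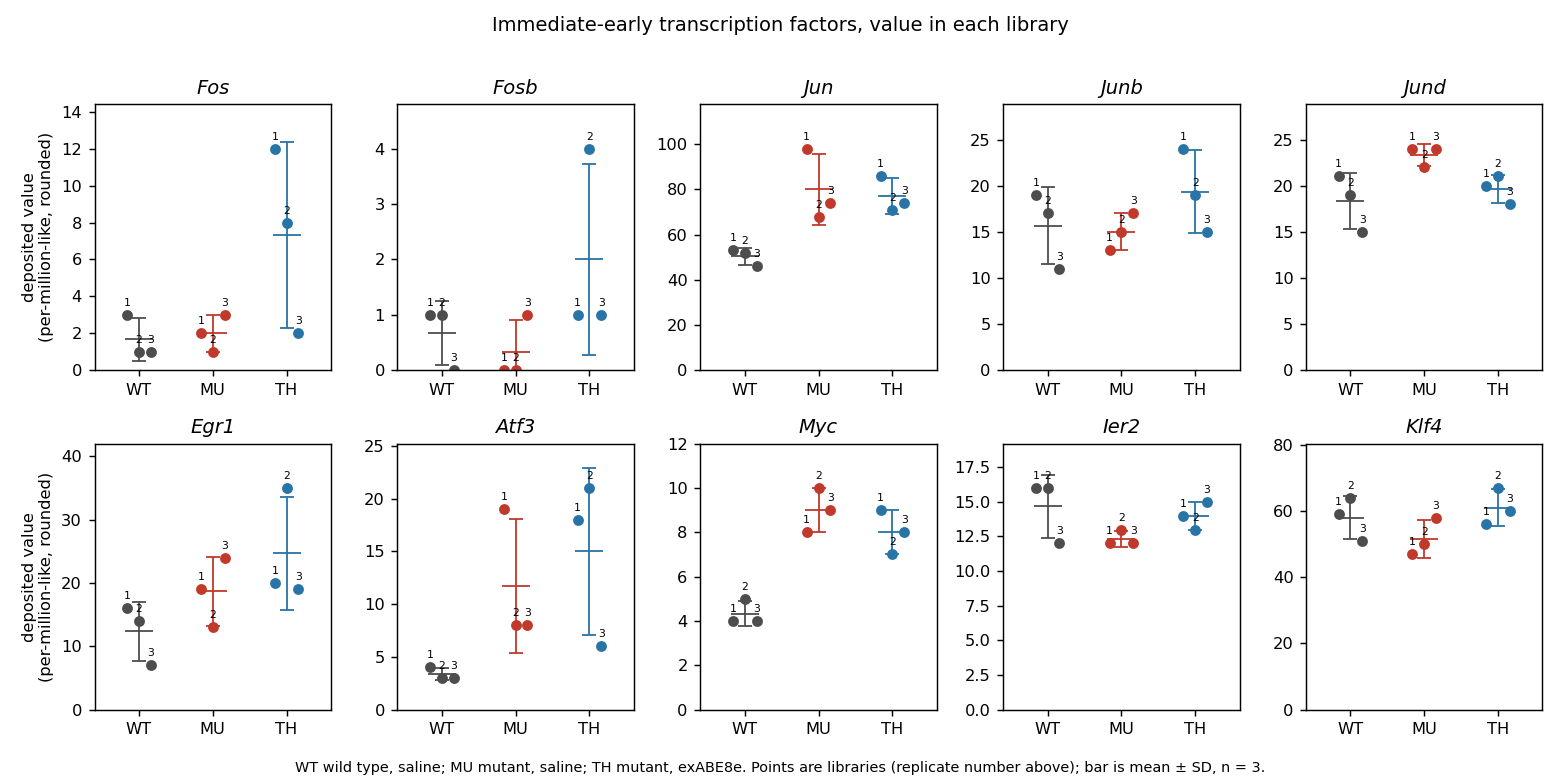
Deposited value (vertical axis, linear, starting at 0) of each of the 10 factors in the 9 libraries, by group: WT wild type, MU saline mutant, TH treated mutant, with points for libraries (replicate number above) and bars for mean ± SD of 3. Jun, Atf3 and Myc are higher in every MU and TH library than in every WT library, and the treated values of Fos run from 2 to 12.

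With 1 library left out, the log2 rises were 0.49 to 0.75 for Jun, 1.06 to 1.64 for Atf3 and 0.84 to 0.995 for Myc, in smaller fits that did not always call them. Jun was called in 8 of 17 alternative fits (adjusted p 0.0169 to 0.119), Atf3 in 10 of 16 (0.00446 to 0.0926) and Myc in 12 of 16 (0.00392 to 0.0946), always in the same direction. Jun was not called without wild type 1, 2 or 3 (0.0863, 0.0624 and 0.119) or without saline mutant 1 or 3 (0.0570 and 0.0651), nor under the 2 other scalings (0.0581 and 0.0591). Atf3 was not called without wild type 1, 2 or 3 (0.0764, 0.0556 and 0.0729), and Myc not without wild type 1 or 3 (0.0571 and 0.0515) or saline mutant 2 (0.0742). The variance floor, a lower limit on residual variances, was chosen with earlier results of these data known. With no such floor, Jun and Atf3 were not called (limma adjusted p 0.0860 and 0.0926), while Myc was (0.0177). Atf3 was also not called with all 9 libraries in 1 fit (0.0716). Without wild type 1 and saline mutant 3, the Xist libraries of this comparison, none of the 3 was called (Jun 0.0922, Atf3 0.0587 and Myc 0.0946). Their log2 fold changes were then 0.73, 1.75 and 0.86, against 0.64, 1.45 and 0.91 with all libraries.

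Some markers of other cells differed with the mutation. The 6 fibroblast markers summed to 1200 to 1586 in wild type, 1935 to 2983 in saline mutants and 1452 to 1848 in treated mutants. Of the 6, 2 rose in saline mutants, Col1a1 and Col1a2 (0.93 and 0.91), beside 7.70% called over all genes. The 7 macrophage markers summed to 272 to 358, 288 to 546 and 238 to 365, with none called. None of the 7 endothelial or the 6 smooth muscle and pericyte markers was called in saline mutants, with medians of -0.17 and -0.18. The 5 red-cell markers summed to 104 to 313, 69 to 85 and 140 to 158, and 2 of them, Hba-a2 and Alas2, fell in saline mutants. No defining marker of the fibroblast, macrophage and red-cell lists was at 0. The part of these cells in the rise of Jun, Atf3 and Myc was not tested.

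The second comparison asked what the treatment changed, treated against saline mutants. None of the 10 factors was called, beside 0.0147% of all 13636 genes tested, which is 2 genes. For the 3 factors that were high in saline mutants no difference was detected, and Fos and Fosb were high in 1 or 2 of the treated libraries. All 10 had a mean of at least 1, Fosb only by way of its treated values. At an unadjusted p under 0.05 there were 2 factors, Fos and Fosb, and 1130 of all genes (8.29%), and Fosb, admitted by its treated values, adds no support.

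Fos (chromosome 12, 85473890 to 85477273) was 2, 1 and 3 in saline mutants, then 12, 8 and 2 in treated mutants (2 ± 1 against 7.33 ± 5.03). Treated mutants 1 and 2 were above every saline library of either genotype, and treated mutant 3 was not. The difference was 1.29 (SE 0.505, limma unadjusted p 0.0324 and adjusted p 0.561), which did not pass the test over all genes. Fosb was 0, 0 and 1 against 1, 4 and 1, a difference of 1.11 (SE 0.427, limma adjusted p 0.551), with the highest value, 4, in treated mutant 2. Without treated mutant 3 the difference in Fos was 1.91 (limma adjusted p 0.110), and without treated mutant 1 it was 0.85 (0.776).

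Jun was 98, 68 and 74 in saline mutants, then 86, 71 and 74 in treated mutants, a difference of -0.04 with a 95% interval from -0.39 to 0.31. Myc was 8, 10 and 9 against 9, 7 and 8, a difference of -0.15 with an interval from -0.52 to 0.21. Atf3 was 19, 8 and 8 against 18, 21 and 6, and its interval, from -0.77 to 1.34 around 0.28, was wide. Each of the 3 overlapped between the groups, and none was called (limma adjusted p 0.984 for Jun, 0.851 for Myc and 0.894 for Atf3). No change with treatment was thus detected in the genes that had risen with the mutation, within the bounds of these intervals.

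Jund was 24, 22 and 24 against 20, 21 and 18, lower in every treated library by -0.24 (SE 0.123, limma adjusted p 0.656). It was the only one of the 10 without overlap here, beside 9.82% of all genes in either direction. Junb was 13, 15 and 17 against 24, 19 and 15 (0.33, interval -0.10 to 0.76), and Egr1 was 19, 13 and 24 against 20, 35 and 19 (0.37, with overlap). Ier2 and Klf4 differed by 0.17 and 0.24, with adjusted p-values of 0.776 and 0.663 in limma.

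**Figure D2:**
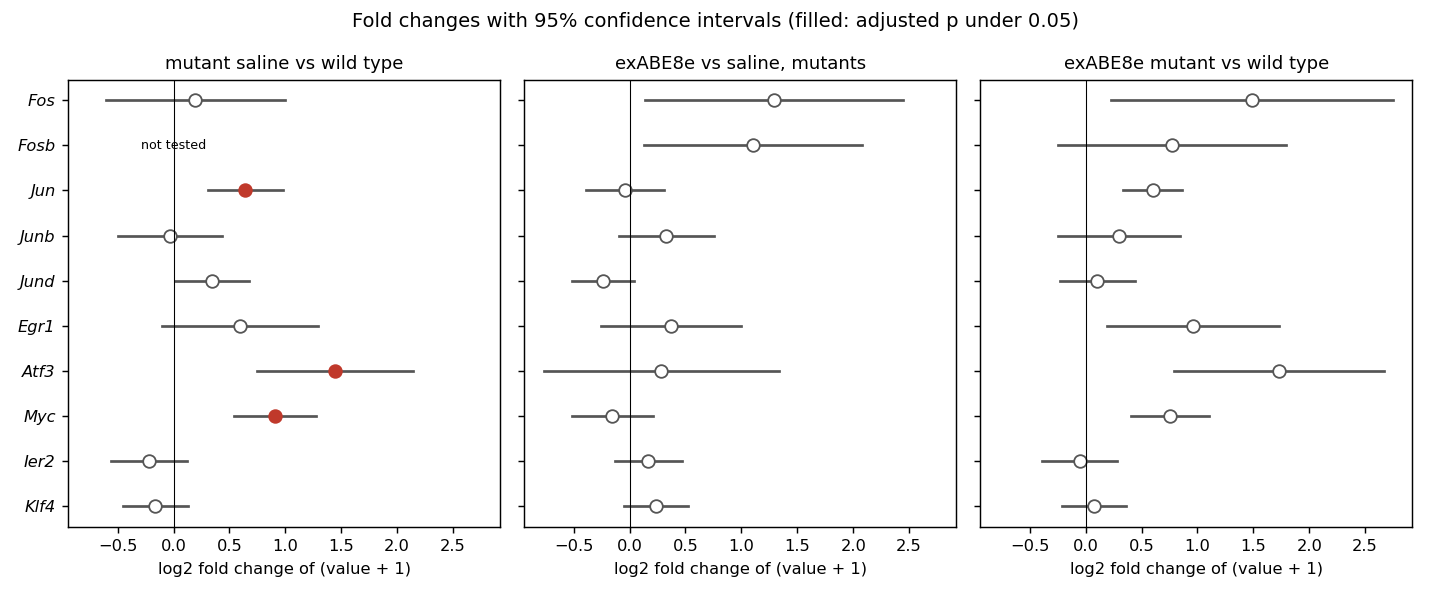
Log2 fold change of (value + 1), horizontal axis, for each factor in the 3 comparisons, with 95% confidence intervals from limma. The filled points have an adjusted p under 0.05: Jun, Atf3 and Myc in saline mutants against wild type (where Fosb was not tested), and none in the other comparisons.

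The third comparison, treated mutant against wild type, asked how far treated mutants were from wild type. It shares the wild-type libraries with the first comparison and the treated libraries with the second, so it is no separate evidence. None of the 10 was called, beside 0.989% of all 13554 genes (134 genes). Jun, Egr1, Atf3 and Myc were higher in every treated library than in every wild-type library, 4 of the 10, beside 14.6% of all genes without overlap in either direction. The log2 differences were 0.60 for Jun (SE 0.114, limma adjusted p 0.0709), 0.75 for Myc (SE 0.151, 0.0850), 1.73 for Atf3 (SE 0.404, 0.130) and 0.96 for Egr1 (SE 0.330, 0.285). Jun and Myc passed the test when the prior was taken from all genes (0.0369 and 0.0480), and Myc also with all 9 libraries in 1 fit (0.0343). Set beside them, the same genes in saline mutants against wild type had 0.64, 0.91, 1.45 and 0.59.

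Egr1 was 16, 14 and 7 in wild type and 20, 35 and 19 in treated mutants, the only one of the 4 whose saline mutants overlapped with wild type. Fos differed by 1.49 (SE 0.541, limma adjusted p 0.314) with overlap, since treated mutant 3, at 2, lay within the wild-type range of 1 to 3. Fosb differed by 0.77, Junb by 0.30 and Jund by 0.11, each with overlap. Ier2 and Klf4 differed by -0.05 (interval -0.39 to 0.28) and 0.07 (interval -0.21 to 0.36). These were the smallest differences among the 10, and their signs, like that of Jund, changed between fits. At an unadjusted p under 0.05 there were 5 of the 10 (Fos, Jun, Egr1, Atf3 and Myc) and 12.5% of all genes. Atf3 passed the test without treated mutant 3 (2.25, limma adjusted p 0.00880), in a range from that value to 0.575 over the alternatives, and that library's value of 6 was the lowest of the treated ones.

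Read by library, the 10 factors were lowest in 1 wild-type library and highest in 2 treated ones. In wild type 3 none of the 10 was above the wild-type mean, and in wild type 1 there were 9. The sum of the 10 was 196, 192 and 150 in wild type, 242, 200 and 230 in saline mutants, then 260, 266 and 218 in treated mutants. Treated mutants 1 and 2 held the single highest value of 6 of the 8 factors that had one (75%), and of 24.6% of all genes. These 2 libraries were singled out after their values were seen. Treated mutant 1 is a library with Xist and treated mutant 2 is not, and their fibroblast marker sums, 1645 and 1452, were below the 1848 of treated mutant 3. The part of either in these values was not tested.

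**Figure D3:**
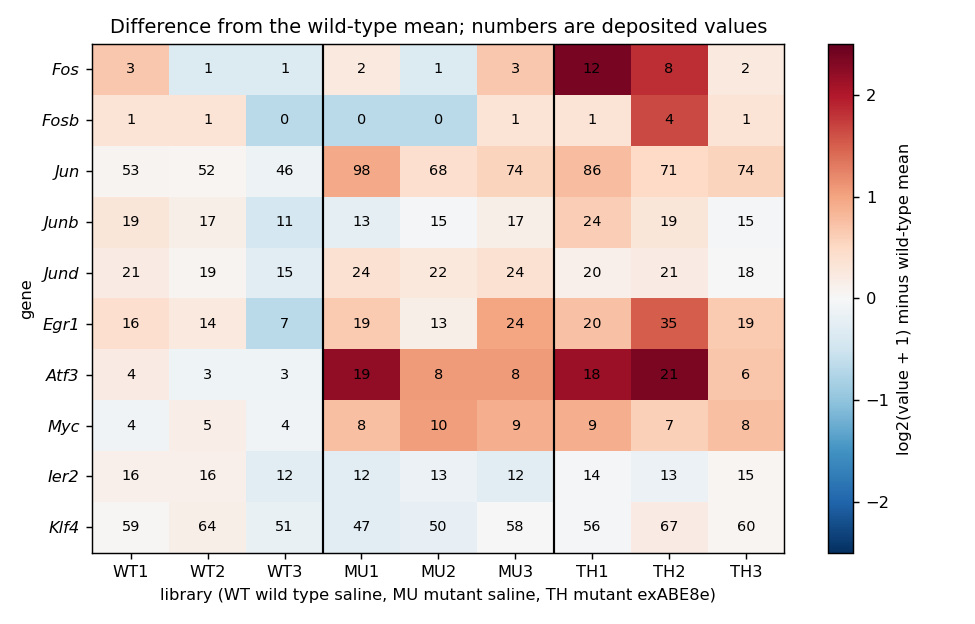
Each cell holds the deposited value of a factor (rows) in a library (columns), coloured by log2(value + 1) minus its wild-type mean, red for higher and blue for lower. The Atf3 and Myc rows are red in all 6 mutant libraries, and the Fos row is dark only in TH1 and TH2, at 12 and 8.

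Within the JUN family, the share of Jun in the sum of Jun, Junb and Jund was 60.0% ± 3.54 in wild type, 67.2% ± 4.65 in saline mutants, then 66.4% ± 2.61 in treated mutants (n = 3), with the reserve on comparing genes given above. By library it was 57.0%, 59.1% and 63.9% in wild type, 72.6%, 64.8% and 64.3% in saline mutants, then 66.2%, 64.0% and 69.2% in treated mutants. All 6 mutant libraries were above all 3 wild-type ones, but the closest, 63.9% and 64.0%, cannot be told apart with values rounded to whole numbers. Jun is itself part of the share, so this is not separate from its rise. The FOS family, summed over Fos, Fosb and Fosl2, was 34, 37 and 26 in wild type, 40, 28 and 38 in saline mutants, then 64, 75 and 36 in treated mutants. Most of that sum was Fosl2, a slower FOS relative, at 30, 35 and 25, then 38, 27 and 34, then 51, 63 and 33. Fosl1 is not analysed here.

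Parts of 3 genes overlap other genes. Jun shares 232 exon bases with the antisense RNA Junos, listed at 0 or 1 in every library, and Junb shares 173 with Prdx2, at 225 to 280. Jund shares 877 with an antisense gene, Gm11175, that is not analysed here. Whether the counting used strand is not given in the sources used here, so reads in the shared stretches cannot be assigned with certainty.

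The relatives and partners of the factors were read from lists of genes. Of 19 other AP-1, ATF and MAF genes tested, 3 rose in saline mutants and none fell, beside 7.70% called over all genes, and the median was 0.33 beside 0.07. The count was 1 to 3 over the alternatives, and 1 without wild type 3, without any 1 saline mutant, without the Xist libraries, without the variance floor or with all 9 libraries in 1 fit. Mafk, a small MAF protein, was 43, 42 and 46 in wild type and 65, 67 and 71 in saline mutants (0.62, limma adjusted p 0.00673). Atf4, a factor of the integrated stress response, rose by 0.53 (0.0335) and Atf6, a sensor of endoplasmic reticulum stress, by 0.60 (0.0425). Mafk was called in all 17 alternative fits, and Atf4 and Atf6 in 8 each. In treated against saline mutants none of the 19 was called. Maff, another small MAF, named for the smallest p of the list, was 9, 10 and 10 against 20, 25 and 11 (0.81, limma adjusted p 0.457). It was highest in treated mutants 1 and 2, and high treated values are in part fixed by that choice.

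Some other immediate-early genes rose in saline mutants too. Of 37 tested, 8 rose and none fell, beside 7.70% called over all genes, and the median of the 37 was 0.22. Ccn2, a matrix growth factor, was 47, 52 and 59 in wild type, 176, 171 and 271 in saline mutants, then 364, 178 and 175 in treated mutants, a rise of 1.92 (SE 0.181, limma adjusted p 0.000602) with the mutation. Ier5, a regulator of the heat-shock factor, was 30, 28 and 28, then 74, 71 and 71, then 74, 44 and 51, a rise of 1.30 (limma adjusted p 0.000213). Hbegf, an EGF-receptor ligand, was 16, 16 and 14, then 42, 31 and 39, then 49, 47 and 28, a rise of 1.22 (limma adjusted p 0.00147). For all 3, every mutant library, treated or not, was above every wild-type library.

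Btg2, an antiproliferative gene, rose by 0.92 (limma adjusted p 0.00252) and Trib1, a pseudokinase, by 1.07 (0.00728). Egr2, a close relative of Egr1, was 1 in each wild-type library and 5, 3 and 4 in saline mutants (1.30, 0.00686). The remaining 2 of the 8 were Egr3 (2, 2 and 1 against 9, 4 and 8) and Ccn1 (33, 33 and 38 against 49, 68 and 72). Ccn2, Ier5, Hbegf, Btg2 and Trib1 were called in all 17 alternative fits, which Jun, Atf3 and Myc were not, and the count over the list was 5 to 9. The 5 was found without the Xist libraries.

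**Figure D4:**
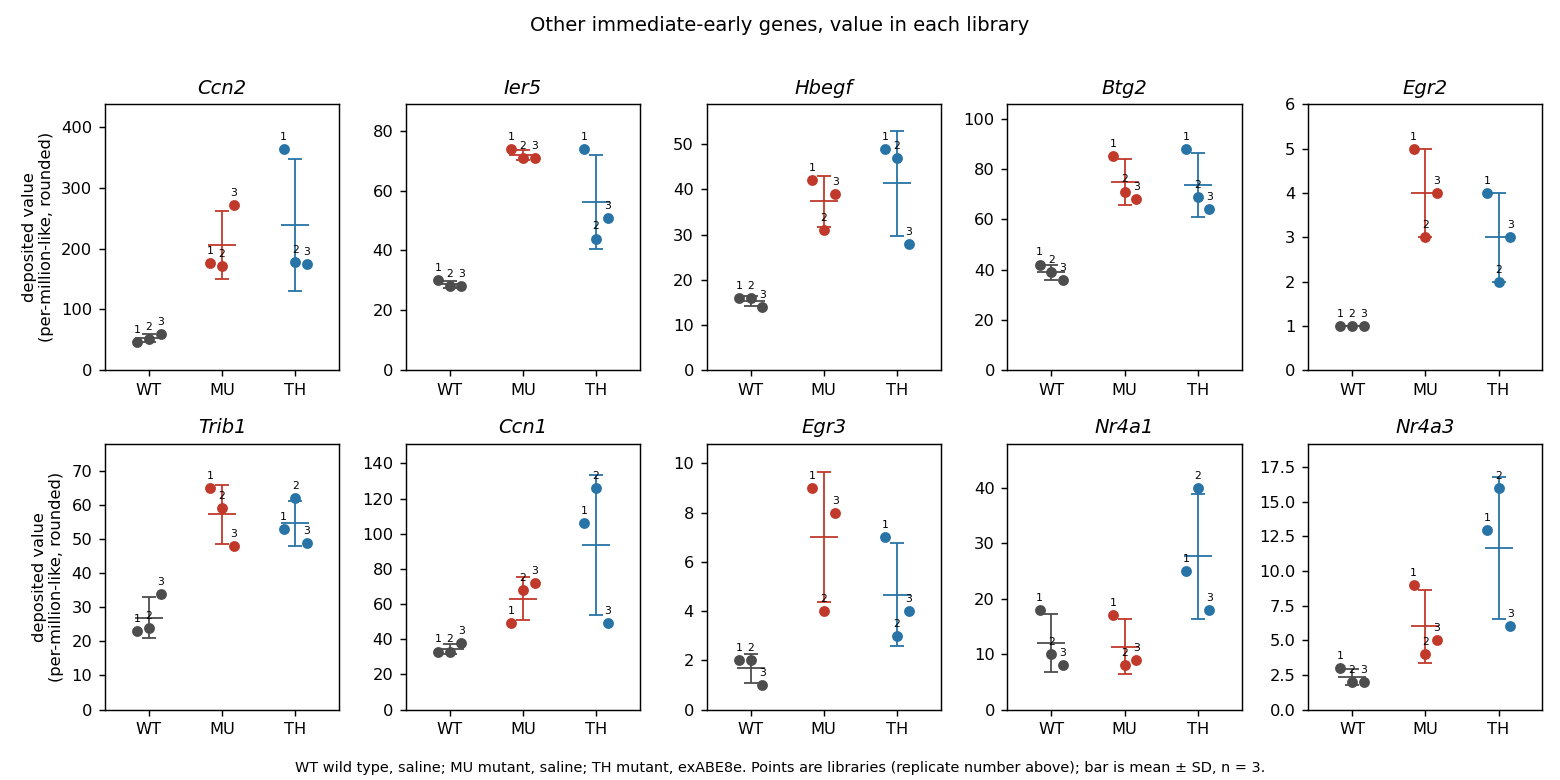
Deposited values (vertical axis, linear, from 0) of 10 immediate-early genes outside the factor set in the 9 libraries, by group, with mean ± SD of 3. The first 8 panels are the genes called in saline mutants, each higher in every MU library than in every WT one, and Nr4a1 and Nr4a3 reach 40 and 16 in TH2.

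Among these 37 genes none was called in treated against saline mutants. The 2 with the smallest p were Nr4a1, an orphan nuclear receptor (17, 8 and 9 against 25, 40 and 18, a difference of 1.21, limma adjusted p 0.369), and Socs3, a cytokine feedback gene (4, 3 and 3 against 9, 5 and 5, a difference of 0.72, limma adjusted p 0.479). Nr4a3, named after its values were seen, was 9, 4 and 5 against 13, 16 and 6. Treated mutants 1 and 2 held the single highest value of 17 of the 33 genes of the list that had one (51.5%), beside 24.6% of all genes. Saline mutant 3 held that of 9 of the 33, beside 4337 of 10342 over all genes. Against wild type, 4 of the 37 were higher in treated mutants: Ccn2 by 2.08, Btg2 by 0.89, Hbegf by 1.33 and Trib1 by 1.01, with limma adjusted p-values from 0.0277 to 0.0487. This 4 of 37 stands beside 0.989% of all genes. That count was 0 without the variance floor, 1 with the replicate block or no filter, 2 with a pseudocount of 5, and 7 with the prior from all genes or all 9 libraries in 1 fit. It was also 0 without any 1 of the 3 wild-type libraries or without treated mutant 2, 1 without treated mutant 1 or the Xist libraries, and 6 without treated mutant 3.

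Genes upstream of the factors were read next. Of 26 genes of SRF, its ELK and MRTF partners, CREB and the MAP kinases, none rose in saline mutants and 1 fell, beside 7.70% called over all genes, with a median of 0.04 beside 0.07. The count that fell was 3 under median-of-ratios and 4 under upper-quartile scaling, and 0 with the replicate block. The 1 gene was Mapk14, the p38 alpha kinase, at 87, 88 and 85 in wild type, 58, 62 and 66 in saline mutants, then 78, 77 and 72 in treated mutants (-0.48, limma adjusted p 0.0189). Its call was lost without wild type 1, 2 or 3 or saline mutant 1 or 2 (adjusted p up to 0.0949, here and below the highest over a gene's alternatives). Srf itself was 71, 85 and 70, then 97, 96 and 84, then 97, 89 and 83, and was not called.

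Of 14 feedback genes of the MAP kinases, 1 rose and 1 fell in saline mutants, beside 7.70% called over all genes. Under either other scaling 2 fell, and with the replicate block or all 9 libraries in 1 fit none did. Dusp8, a phosphatase of JNK and p38, rose by 0.66 (limma adjusted p 0.0100), and Dusp7, a phosphatase of ERK, fell by 0.46 on the log2 scale (0.0269). Dusp8 lost its call without saline mutant 2 (0.0563), and Dusp7 lost it without wild type 1, 2 or 3 or saline mutant 1 or 2 (up to 0.110). Dusp1, itself an immediate-early phosphatase, was 72, 63 and 56 in wild type, 53, 48 and 55 in saline mutants, then 91, 96 and 68 in treated mutants. Its difference between the mutant groups, 0.69 without overlap, had an unadjusted p of 0.00133 and an adjusted p of 0.216 in limma.

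Genes known as AP-1 targets rose in part. Of 13 tested, 5 rose in saline mutants and none fell, beside 7.70% called over all genes, and the median was 0.47 beside 0.07. The 5 include Spp1, which passed the limit for testing only through its mutant values and so adds no support, and the count was 3 to 6 over the alternatives. It was 3 without wild type 1, saline mutant 2, saline mutant 3 or the Xist libraries, with the higher filter, without the variance floor or with all 9 libraries in 1 fit. Cd44, a hyaluronan receptor, was 19, 23 and 13, then 49, 43 and 62, then 48, 49 and 41 (1.46, limma adjusted p 0.00420). Every mutant library, treated or not, was above every wild-type library, and Cd44 was called in all 17 alternative fits of this comparison.

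Timp1, a protease inhibitor, and Hmox1, a haem-degrading enzyme, rose by 1.55 and 0.82. Spp1, a matrix protein, differed by 1.39. Timp1 and Spp1 were at 7 or less in both groups, and Timp1 lost its call with all 9 libraries in 1 fit (0.0649). Hmox1 lost its call without wild type 1 or 3 or saline mutant 2 or 3 (up to 0.115). Spp1, at 0 or 1 in wild type and 2 or 3 in saline mutants, was called in 7 of 16 alternatives and not without wild type 1 or 2 or any 1 of the saline mutants. The other 8 of the 13, among them Mmp3, Mmp14, Plau and Ccnd1, were not called. None of the 13 was called in treated against saline mutants. Against wild type, 2 of the 13 were higher in treated mutants, beside 0.989% of all genes called there. Cd44 was among them (1.31, limma adjusted p 0.0342) and lost that call without any 1 of the 6 libraries (up to 0.208).

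Partners and targets of MYC were read in the same way. None of 10 genes of the MAX and MXD network was called in saline mutants, and the 2 with the smallest p were Mxd3 (1.06, limma adjusted p 0.105), which passed the limit for testing only through its mutant values, and Mxd4 (0.38, limma adjusted p 0.234). Of 20 MYC targets, 1 rose and 1 fell, beside 7.70% called over all genes, with a median of 0.26 beside 0.07. Ccnd2, cyclin D2, was 102, 128 and 108 in wild type, 351, 418 and 408 in saline mutants, then 213, 166 and 246 in treated mutants (1.79, limma adjusted p 0.000144). Ldha, lactate dehydrogenase A, was 696, 725 and 681, then 499, 478 and 536, then 711, 639 and 626, and fell by 0.47 on the log2 scale (0.0178). The call of Ldha was lost without wild type 2 or 3 or saline mutant 1 or 2 (up to 0.118). Both lay nearer to wild type in treated mutants, with differences between the mutant groups of -0.92 and 0.38 that were not called (limma adjusted p 0.145 and 0.369), and any link to Myc was not tested. None of 10 KLF genes and EGR corepressors was called, with Klf13 (0.16) and Klf11 (0.14) closest.

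**Figure D5:**
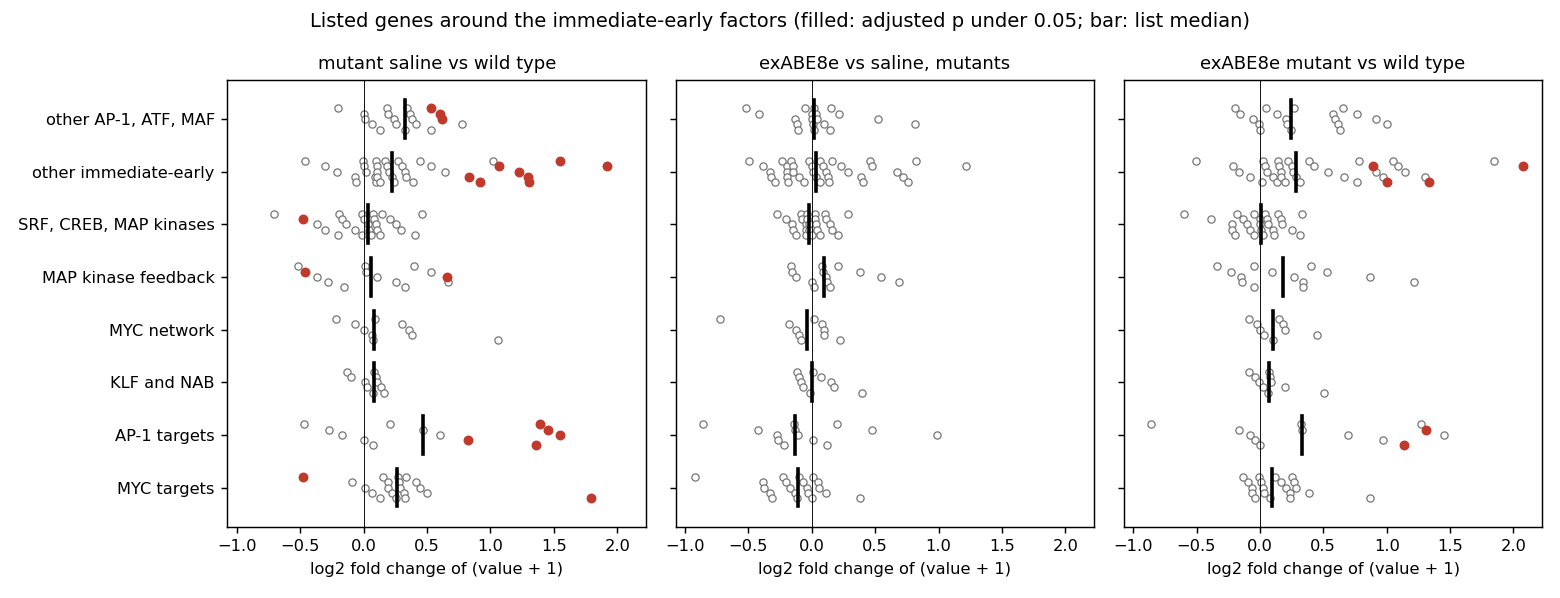
Log2 fold change of (value + 1), horizontal axis, of each tested gene in the 8 lists (rows) for the 3 comparisons, with points for genes, filled where the adjusted p is under 0.05, and a vertical bar for the list median. The called genes lie mostly among other immediate-early genes and AP-1 targets in the first panel, and the middle panel has none.

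The genes whose pattern over the 9 libraries was most like that of the factors were found by Pearson's r with the mean of the factors' standardised log2(value + 1), among 8779 genes with a mean of at least 10. Among the 5 highest were Cnpy3 (r = 0.94), Nedd9 (0.93), Golph3 (0.92) and Slc3a2 (0.92). Nedd9, a scaffold protein of cell adhesion, was 29, 38 and 23 in wild type, 37, 32 and 39 in saline mutants, then 49, 52 and 37 in treated mutants. Slc3a2, a subunit of amino acid transporters, was 30, 29 and 25, then 33, 31 and 36, then 46, 50 and 33. Both were highest in treated mutants 1 and 2, which the choice by likeness fixes in part. None of the 5 was called in any comparison, and with 9 points that share library scaling, r is a description.

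In the authors' deposited table of selected genes for saline mutant against wild type, Jun (log2 fold change 0.61) and Atf3 (1.76) were 2 of 689 genes, selected out of 15589. The authors' deposited table for treated against saline mutants selected 137 of 15580 genes and none of the 10 factors. For treated mutant against wild type, the authors' deposited table of 317 genes, out of 15418, held Fos (2.13), Jun (0.60), Egr1 (0.98) and Atf3 (2.16). The selecting p-values in the authors' deposited table, 0.0197 for Jun and 0.0127 for Atf3 in the first comparison, equalled unadjusted normal p-values. Adjusted over all rows by Benjamini-Hochberg, they became 0.458 and 0.337. In treated mutants against wild type the unadjusted normal p-values were 0.0439 for Fos, 0.0259 for Jun, 0.0463 for Egr1 and 0.00394 for Atf3. After the same adjustment the lowest of these 4 was 0.358, for Atf3. These tables and limma thus differ in the factors they pick out. Myc is absent from the authors' deposited tables of selected genes, and Fos and Egr1 are absent from the limma calls. For Myc in the first comparison the authors' log2 fold change was 0.98 (SE 0.668), with an unadjusted normal p of 0.141.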

How the data were processed

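PolyA RNA of 9 mouse heart libraries was analysed from the tables the authors deposited for each pair of groups. HISAT2, HTSeq, DESeq2 and the build mm10 are named, with no version or role, per the submitters' processing notes. The deposited values per library are whole numbers on a per-million-like score whose unit is not named. Per the file headers, the tables also give the authors' mean signal, log2 fold change with its standard error, a test score and p-values. The column headed as the adjusted p-value in the deposited tables equals the unadjusted normal p of the score.

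Groups were taken from the sample titles and compared on log2(value + 1) by limma (version 3.58.1, R 4.3.3), fitting each pair separately and without a replicate block. Genes needed a mean of at least 1 over the 6 libraries. Residual variances were held at or above the rounding variance (1/12), and the prior degrees of freedom came from genes with a mean of at least 30. The script was tested on simulated data. Calls needed a Benjamini-Hochberg adjusted p under 0.05. Depth is unknown, so precision rests on 3 libraries a group. No value differed between tables for a gene and library.

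The 10 factors and the 8 gene lists and 10 marker lists were chosen with earlier results of these data known, as was the variance step. Named genes are the factors, Mybpc3, up to 6 called genes per gene list by smallest p, the 2 of smallest p where none was called, and the 5 most alike in pattern. Of these, 2 genes are not reported here. Egr3, Ccn1, Srf, Fosl2, Nr4a3 and the uncalled AP-1 targets were added after their values were seen. Older symbols (4) were matched through RefSeq. Positions come from GENCODE M21 on GRCm38, and promoters from RefSeq on GRCm38.p6. Alternatives changed the pseudocount, filter, scaling, variance step and replicate block, fitted all 9 libraries together, or left out libraries.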

Additional observations from a re-analysis of the deposited data

How the results depend on the processing

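Among the fits of single factors, 443 kept their direction and side of the threshold, 19 lost a call, 4 gained one and 15 changed sign. All that changed sign were never called. The number of factors called in saline mutants against wild type, 3, was 1 with a filter at a mean of 10 (which removes Atf3 and Myc). It was also 1, Myc, without the variance floor. It was 0 without wild type 1 and saline mutant 3, the Xist libraries there, and 0 to 2 with 1 library left out. In treated against saline mutants it was 0 in every alternative. Against wild type, treated mutants had 2 called with the prior from all genes, 1 with all 9 libraries in 1 fit, and 0 to 1 with 1 library left out.

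Genes called in saline mutants against wild type, 1050 in all, were 506 to 1029 with 1 library left out and 556 without the Xist libraries. Of the calls, 59.2% were higher, 53.6% under median-of-ratios and 47.6% under upper-quartile scaling. In treated against saline mutants the 2 genes became 7 with a pseudocount of 5, 6 with the higher filter, 10 under either scaling, 32 without the variance floor, 14 with the prior from all genes, 30 with a replicate block, 13 with all 9 libraries, and 2 to 8 with 1 left out. In treated mutants against wild type the 134 became 86 with no filter, 77 without the floor, 243 with the prior from all genes, 35 with a replicate block, 248 with all 9 libraries, 9 without the Xist libraries, and 1 to 133 with 1 left out. The higher share there was 87.3%, 79.3% and 71.6% under the 3 scalings.

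Signs changed with 1 library left out in saline mutants against wild type for Junb (-0.25 to 0.11, positive without wild type 1, wild type 2 or saline mutant 1) and Fos (-0.041 to 0.53, negative without saline mutant 3). They changed in treated against saline mutants for Jun (-0.15 to 0.11, positive without saline mutant 1 or treated mutant 2) and Atf3 (-0.026 to 0.80, negative without treated mutant 2). In treated mutants against wild type they changed for Jund (-0.024 to 0.21, negative without wild type 3), Klf4 (-0.014 to 0.15, negative without wild type 3) and Ier2 (-0.18 to 0.011, positive without wild type 1 or 2). Without the Xist libraries Junb was 0.026, Atf3 -0.11 and Ier2 0.0097 in these respective comparisons, and Klf4 was -0.0063 under upper-quartile scaling. The cause was not tested.

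Libraries of equal replicate number had deviations from their group means that correlated at -0.23, -0.10 and -0.37 in the first comparison. The correlations were -0.07, 0.20 and 0.12 in the second, and 0.57, 0.15 and 0.03 in the third. Unequal numbers gave -0.07 to 0.28, -0.25 to 0.07 and -0.39 to 0.34, respectively. Deviations from a mean of 3 are tied to one another, so whether equal numbers pair the libraries cannot be decided from these values. The replicate block changed no call of a factor. Of listed genes named, it lost Atf4, Mapk14, Dusp7 and Ldha in the first comparison and Ccn2, Trib1 and Hbegf in the third, and it gained 1 lower MYC target in the second. With 3 libraries a group and rounded values, modest changes of low genes such as Fos and Fosb cannot be resolved.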
